A study of Homo sapiens with 6 samples.

Results

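The 10 genes described here are transcriptional targets of p53 that act in cell death: the death receptor gene FAS, the TRAIL receptor genes TNFRSF10A, TNFRSF10B, TNFRSF10C and TNFRSF10D, the BCL2 family genes BBC3, PMAIP1 and BAX, the oxidoreductase gene TP53I3 and the nuclease gene AEN. They were chosen by name, and all 10 were found among the 20026 genes kept from the deposited tables. Their levels were compared in stable lines of HCT116, a human colon carcinoma cell line. One line over-expressed the K178R mutant of the transcription factor TEAD4, one over-expressed wild type TEAD4, and one was a control, with 2 RNA sequencing libraries from each. The sources used here do not state the vector behind each line, the number of clones or how replicates were made. The p-values therefore cover the spread between libraries alone, which may be technical. All values are FPKM, fragment numbers corrected for transcript length and for library size, so levels of different genes can be set side by side.

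p53 is a tumour suppressor that binds DNA and raises the transcription of its targets after DNA damage and other stress. Some targets stop the cell cycle, and others lead to death. In the receptor route, FAS and the TRAIL receptors TNFRSF10A (DR4) and TNFRSF10B (DR5) sit in the cell membrane and, once bound by ligand, recruit FADD and caspase 8. TNFRSF10C and TNFRSF10D bind TRAIL as well but lack a working death domain and are known as decoys. In the mitochondrial route, the BH3-only proteins PUMA (gene BBC3) and NOXA (gene PMAIP1) block anti-death BCL2 proteins, and BAX makes pores in the outer mitochondrial membrane. TP53I3 (PIG3) is a quinone oxidoreductase tied to reactive oxygen, and AEN is an exonuclease that takes part in DNA breakdown during apoptosis. TEAD4 belongs to the TEAD family, through which the coactivators YAP1 and TAZ reach DNA.

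The labels of over-expression were checked with the level of TEAD4. It stood between 71.2 and 72.3 FPKM in the K178R libraries and between 84.4 and 86.4 in the wild type libraries. In the control libraries it stood between 16.6 and 17.5. These levels set the over-expressing lines apart from control, but a gene's level does not show a mutation. Which of the TEAD4 lines carries K178R was therefore not checked and rests on the titles. For wild type replicate 2 the genotype field names TEAD5 and the title TEAD4, and the title was followed. The number of reads is unknown. From the lowest values, depths were 0.927 to 1.05 times that of control replicate 1. Of 9 epithelial markers 7 were expressed, among them EPCAM, while VIL1 stayed under 0.03 FPKM and CDX1 was listed at 0 in every library. Their summed level was 2854 and 2887 FPKM with K178R, 1851 and 1797 with wild type TEAD4 and 2682 and 2636 in control, set mostly by KRT8 and KRT18. Of 6 fibroblast, 6 leukocyte and 5 endothelial markers, 1 of each passed the filter (COL1A1, CORO1A and ESAM). Their summed levels were 1.73 to 1.88 FPKM with K178R, 3.64 to 3.78 with wild type TEAD4 and 1.53 to 1.76 in control for fibroblast markers, 1.49 to 2.04, 2.16 to 2.54 and 1.19 to 1.20 for leukocyte markers in the same order of lines, and 1.37 to 1.52, 1.96 to 2.46 and 2.02 to 2.13 for endothelial markers. Markers that define those cell types were at or near 0: DCN, LUM, COL1A2 and CD3E were listed at 0 in every library, and PTPRC and PECAM1 stayed under 0.01 FPKM.

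RefSeq promoter windows in GRCh38.p14, from 250 bases before to 50 bases after a start site, were at hand for 6 of the 10 genes (FAS with 3 windows, BBC3, PMAIP1, BAX, TP53I3 and AEN). They were searched on both strands for the consensus half-site of p53, which reads alike on both strands, and for GGAATG, written CATTCC on the other strand, a core of the element that TEAD proteins bind. These searches do not overlap in any window printed. Of 8 windows, 2 held a p53 half-site, as did 6.63% of all 35116 windows of that length, and 2 held the TEAD letters, as did 14% of all windows. Only the 4 windows with a match are shown, with the matched letters in capitals. The windows of BAX and PMAIP1, genes that also changed below, held no match. They lie at chr10:88991181-88991480 on the plus strand (FAS, second window), chr15:88621090-88621389 on the plus strand (AEN), chr19:47232618-47232917 on the minus strand (BBC3) and chr2:24084785-24085084 on the minus strand (TP53I3).
FAS: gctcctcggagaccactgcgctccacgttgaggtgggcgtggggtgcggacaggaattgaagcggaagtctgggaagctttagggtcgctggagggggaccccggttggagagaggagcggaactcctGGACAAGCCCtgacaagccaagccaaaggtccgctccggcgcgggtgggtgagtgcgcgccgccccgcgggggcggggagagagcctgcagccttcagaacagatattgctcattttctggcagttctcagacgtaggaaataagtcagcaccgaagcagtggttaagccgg
AEN: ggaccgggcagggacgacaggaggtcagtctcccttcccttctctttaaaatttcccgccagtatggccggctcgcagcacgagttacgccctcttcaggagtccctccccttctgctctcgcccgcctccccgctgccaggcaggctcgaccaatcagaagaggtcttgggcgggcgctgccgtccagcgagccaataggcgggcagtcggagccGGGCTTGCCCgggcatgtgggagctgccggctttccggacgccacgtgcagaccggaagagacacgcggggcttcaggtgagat
BBC3: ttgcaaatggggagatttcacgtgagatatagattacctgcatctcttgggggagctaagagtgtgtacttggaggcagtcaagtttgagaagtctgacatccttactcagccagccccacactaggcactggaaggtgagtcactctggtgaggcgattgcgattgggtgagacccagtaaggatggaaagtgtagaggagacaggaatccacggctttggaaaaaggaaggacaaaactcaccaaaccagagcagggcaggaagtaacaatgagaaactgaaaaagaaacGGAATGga
TP53I3: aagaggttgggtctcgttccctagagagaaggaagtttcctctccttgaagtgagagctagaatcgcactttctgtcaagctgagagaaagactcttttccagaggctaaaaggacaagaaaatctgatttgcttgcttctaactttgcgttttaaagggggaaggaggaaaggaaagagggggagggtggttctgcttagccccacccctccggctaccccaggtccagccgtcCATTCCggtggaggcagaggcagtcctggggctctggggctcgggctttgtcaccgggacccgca
In FAS the capitals lie from -122 to -113 relative to an inner start site. By GENCODE release 29 these bases fall in the first intron of all 4 coding FAS transcripts, an intron known to hold a p53 response element. In AEN the p53 half-site lies from -34 to -25 relative to the start site of its window. The TEAD letters lie from 43 to 48 in BBC3, inside the transcript, and from -15 to -10 in TP53I3. By GENCODE release 29 the AEN and TP53I3 matches lie within the span of each gene, so neither is upstream of its outermost start. A match is a description of letters and no evidence that a factor was bound in these cells.

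Of the 10 death genes, 6 were higher with wild type TEAD4 than in control, and 1 was lower, by limma on log2(FPKM + 1) with Benjamini-Hochberg adjustment over the 11445 genes tested and a threshold of 0.05. Among all genes tested, 37.6% were higher and 12.2% lower in that comparison. With K178R, 1 was higher and 7 were lower than in control, beside 11.7% higher and 11.1% lower among all genes. The 7 became 3 without control replicate 1 or K178R replicate 1, 4 without control replicate 2 and 5 without K178R replicate 2. Over all genes, leaving out any 1 control or K178R library gave 732 to 798 higher and 635 to 734 lower, in place of 1342 and 1268. Between the TEAD4 lines, 0 were higher and 9 were lower in K178R than in wild type, beside 10.4% and 34.5% of all genes. The median log2 change of the 10 genes was 0.31 with wild type TEAD4 against control (0.09 over all genes tested), -0.21 with K178R against control (0.0025 over all genes) and -0.43 with K178R against wild type (-0.08 over all genes). Both comparisons with control rest on the same 2 control libraries. Median-of-ratios scaling, which brought the median of all genes to -0.01 with wild type TEAD4 and to 0.01 between the TEAD4 lines, left 5 of the death genes higher and 1 lower with wild type TEAD4, and 1 higher and 7 lower in K178R against wild type. Over all genes the same scaling gave 2572 higher and 2884 lower with wild type TEAD4 against control, in place of 4309 and 1402, and 2600 higher and 2270 lower in K178R against wild type, in place of 1187 and 3952.

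**Figure D1:**
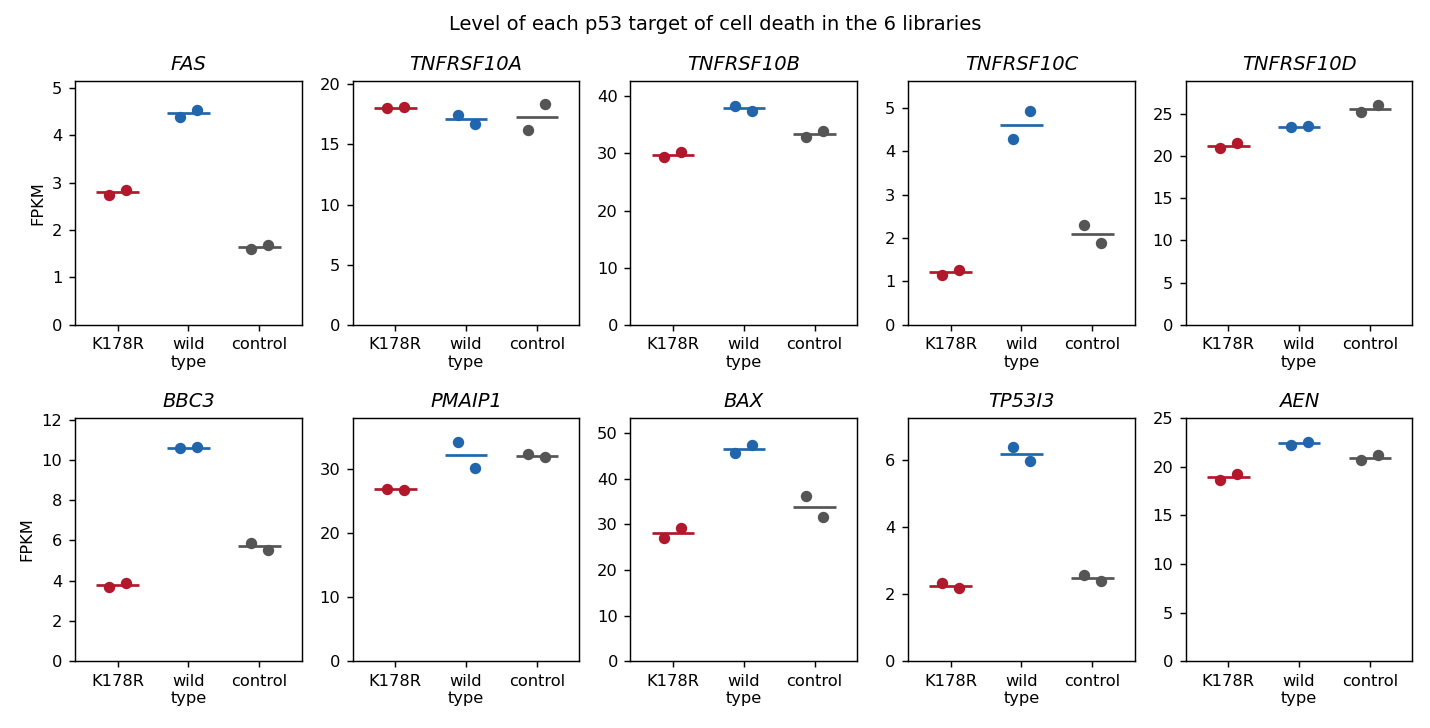
FPKM of each of the 10 death genes in the 6 libraries, 1 panel a gene with its own axis from 0; points are libraries and lines are means of the 2 libraries of a line (K178R red, wild type TEAD4 blue, control grey). All genes but TNFRSF10A and TNFRSF10D have their highest point in a wild type library, and TNFRSF10A and PMAIP1 overlap between wild type and control.

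**Figure D2:**
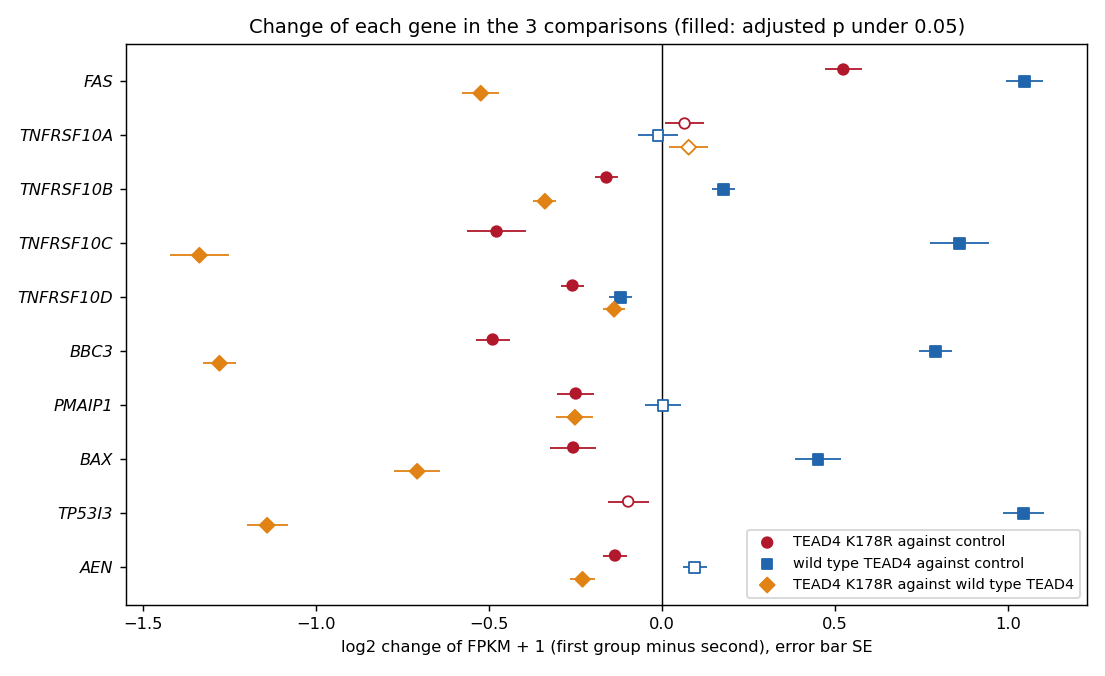
Log2 change of FPKM + 1 of each death gene in the 3 comparisons, first-named line minus second, with the SE from limma as the error bar; filled markers passed an adjusted p of 0.05. FAS lies right of 0 against control in both TEAD4 lines, and BBC3 and TNFRSF10C lie near -0.5 with K178R and near 0.8 with wild type TEAD4.

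FAS (chr10:88990582-89015785 in GRCh38, plus strand) was the death gene that rose in both TEAD4 lines. It stood at 2.75 and 2.85 FPKM in the K178R libraries, 4.40 and 4.53 in the wild type libraries and 1.61 and 1.68 in the control libraries. The 3 lines did not overlap, with wild type highest and control lowest. The mean was 2.72 times that of control with wild type TEAD4 (log2 1.05, SE 0.05, adjusted p = 1.6e-05) and 1.70 times with K178R (log2 0.52, SE 0.05, adjusted p = 0.000652). K178R stood below wild type (log2 -0.52, adjusted p = 0.000408). All 3 calls held in all 16 alternative settings. In bulk RNA, fewer cells with a transcript and less of it per cell cannot be told apart, here and below. In the annotation, 8.93% of the exonic bases of FAS are shared with ACTA2, the smooth muscle actin gene on the opposite strand. ACTA2 read 0.726 and 0.696 FPKM in the K178R libraries, 2.32 and 1.98 in the wild type libraries and 0.692 and 0.465 in the control libraries. The sources used here do not say whether the authors' counting used strand, and the part of ACTA2 in the FAS values was not tested. The ligand gene FASLG was listed at 0 in every library.

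The TRAIL receptor genes, which lie in the order TNFRSF10B, TNFRSF10C, TNFRSF10D, TNFRSF10A on chromosome 8, did not move as one. The protein-coding gene AC107959.5 starts between TNFRSF10B and TNFRSF10C and overlaps TNFRSF10C. TNFRSF10A (DR4) stood at 17.99 and 18.1 FPKM in the K178R libraries, 17.5 and 16.7 in the wild type libraries and 16.2 and 18.3 in the control libraries. It was not called against control in either line (log2 0.06, SE 0.06 with K178R and log2 -0.01, SE 0.06 with wild type TEAD4), and both lines lay within the range of the control libraries. Its change in K178R against wild type (log2 0.08, SE 0.06, adjusted p = 0.305) passed the threshold after median-of-ratios scaling (log2 0.18, adjusted p = 0.0384).

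TNFRSF10B (DR5) stood at 29.4 and 30.2 FPKM in the K178R libraries, 38.4 and 37.5 in the wild type libraries and 32.8 and 34.02 in the control libraries. The 3 lines did not overlap, and the control libraries lay between the others. It rose with wild type TEAD4 (log2 0.18, SE 0.03, adjusted p = 0.00375) and fell with K178R (log2 -0.16, SE 0.03, adjusted p = 0.0132). The rise was not called after median-of-ratios (adjusted p = 0.194) or upper-quartile scaling (adjusted p = 0.106). The fall was not called without control replicate 2 (adjusted p = 0.0800), without K178R replicate 1 (adjusted p = 0.0747) or with the control libraries averaged (adjusted p = 0.0570). K178R lay below wild type in every setting (log2 -0.34, SE 0.03, adjusted p = 0.000364; highest adjusted p of the 16 settings 0.0037).

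Of the decoys, TNFRSF10C had the larger change. It stood at 1.16 and 1.27 FPKM in the K178R libraries, 4.28 and 4.92 in the wild type libraries and 2.30 and 1.89 in the control libraries. The lines did not overlap, and the mean with K178R was 0.264 times that with wild type TEAD4 (log2 -1.34, SE 0.09, adjusted p = 8.1e-05). Against control it rose with wild type TEAD4 (log2 0.86, SE 0.09, adjusted p = 0.00028) and fell with K178R (log2 -0.48, SE 0.09, adjusted p = 0.0078). That fall was at adjusted p = 0.0501 without control replicate 1, with a log2 change of -0.38. The gene's values are uncertain, since 39.7% of the stretches of 50 bases in its coding transcripts also occur in transcripts of other genes, mostly the long noncoding RNA gene AC107959.4. For the other 9 death genes this share was between 0% and 1.26%. Overlaps with genes on the opposite strand are not in this share. Besides FAS, they were largest in TNFRSF10A, at 9.01% and 7.59% of its exonic bases by overlapping gene, followed by TP53I3 at 3.46%. Their part in the values was not tested.

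TNFRSF10D, the decoy with the higher level, stood at 21.0 and 21.5 FPKM in the K178R libraries, 23.4 and 23.6 in the wild type libraries and 25.2 and 26.03 in the control libraries. It was the death gene that fell in both TEAD4 lines, by 0.26 on the log2 scale with K178R (SE 0.03, adjusted p = 0.00181) and by 0.12 with wild type TEAD4 (SE 0.03, adjusted p = 0.0193). The fall with K178R held in all 16 settings. The fall with wild type TEAD4 was not called without control replicate 2, without either wild type library or with the control libraries averaged (adjusted p = 0.0583 to 0.106). Its lower level with K178R than with wild type TEAD4 (log2 -0.14, adjusted p = 0.0123) was not called after either scaling (adjusted p = 0.483 and 0.252), without wild type replicate 2 (adjusted p = 0.0528) or without K178R replicate 1 (adjusted p = 0.0671).

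Summed over the TRAIL receptors, the signalling pair read 47.4 and 48.3 FPKM in the K178R libraries, 55.8 and 54.2 in the wild type libraries and 49.0 and 52.3 in the control libraries. The decoy pair read 22.1 and 22.8 FPKM in the K178R libraries, 27.7 and 28.5 in the wild type libraries and 27.5 and 27.9 in the control libraries. The ratio of signalling to decoy RNA was 2.14 and 2.12 in K178R, 2.01 and 1.90 in wild type and 1.78 and 1.88 in control. The lines did not overlap in this ratio, though the lowest wild type library and the highest control library lay close together. The ratio is given as a description with no test; an exact permutation test of 2 libraries against 2 allows no p under 0.33. The decoy sum includes TNFRSF10C, whose values are uncertain. Without it and TNFRSF10A, the ratio of TNFRSF10B to TNFRSF10D was 1.40 and 1.40 in K178R, 1.64 and 1.59 in wild type and 1.30 and 1.31 in control. In that ratio the wild type libraries were highest, so the order of the lines depends on which receptors are set against each other. The ligand gene TNFSF10 stayed at or under 0.0131 FPKM in every library, and the soluble decoy gene TNFRSF11B at or under 0.0199 FPKM.

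**Figure D3:**
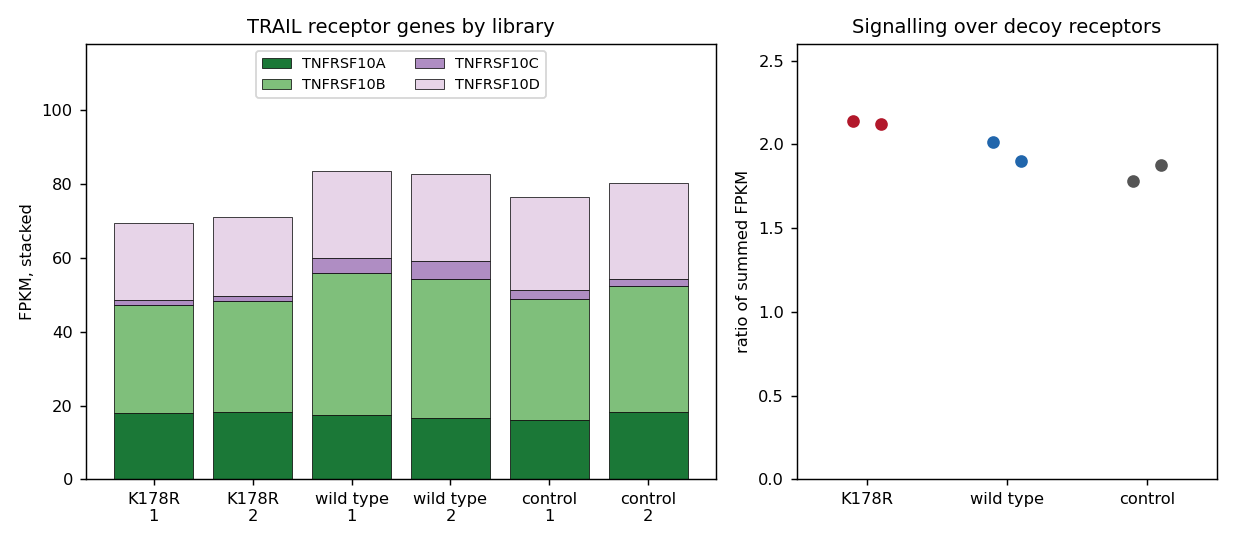
Left, FPKM of the 4 TRAIL receptor genes stacked for each library, from 0; right, summed FPKM of TNFRSF10A and TNFRSF10B over that of TNFRSF10C and TNFRSF10D, 1 point a library. The ratio lies at 2.12 and 2.14 in the K178R libraries and at 1.78 and 1.88 in the control libraries.

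BBC3 (chr19:47220822-47232766, minus strand), which encodes PUMA, had the smallest adjusted p among the death genes between the TEAD4 lines. It stood at 3.68 and 3.88 FPKM in the K178R libraries, 10.6 and 10.6 in the wild type libraries and 5.89 and 5.54 in the control libraries. No line overlapped another, with control between the TEAD4 lines. The mean with K178R was 0.356 times that with wild type TEAD4 (log2 -1.28, SE 0.05, adjusted p = 1.3e-05). Against control it was 1.86 times the control mean with wild type TEAD4 (log2 0.79, SE 0.05, adjusted p = 4e-05), and 0.661 times the control mean with K178R (log2 -0.49, SE 0.05, adjusted p = 0.000619). All 3 calls held in all 16 settings.

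PMAIP1 (chr18:59899948-59904306, plus strand), which encodes NOXA, the other BH3-only protein here, stood at 26.9 and 26.7 FPKM in the K178R libraries, 34.1 and 30.2 in the wild type libraries and 32.3 and 31.8 in the control libraries. Wild type and control overlapped, and both K178R libraries lay below all others. With wild type TEAD4 its log2 change was 0.0023 (SE 0.05, adjusted p = 0.974). It fell with K178R against control (log2 -0.25, SE 0.05, adjusted p = 0.0153) and lay below wild type (log2 -0.25, SE 0.05, adjusted p = 0.00771). The fall against control was not called without any 1 of the control or K178R libraries, nor with the control libraries averaged or with no filter on low values (adjusted p = 0.0588 to 0.0843). The difference from wild type was not called after median-of-ratios scaling (adjusted p = 0.0641). The ratio of BBC3 to PMAIP1 was 0.137 and 0.146 in K178R, 0.310 and 0.353 in wild type and 0.182 and 0.174 in control, with no overlap between lines.

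BAX (chr19:48954815-48961798, plus strand) stood at 26.9 and 29.3 FPKM in the K178R libraries, 45.6 and 47.5 in the wild type libraries and 36.1 and 31.5 in the control libraries. It was the highest of the 10 genes in the wild type line, at 46.5 ± 1.37 FPKM (SD, n = 2), and no line overlapped another. It rose with wild type TEAD4 (log2 0.45, SE 0.07, adjusted p = 0.00135) and stood lower with K178R than with wild type TEAD4 (log2 -0.71, SE 0.07, adjusted p = 0.00032), and both calls held in all 16 settings. Against control it fell with K178R (log2 -0.26, SE 0.07, adjusted p = 0.0301). That fall was not called without control replicate 1 (log2 -0.16, adjusted p = 0.131), without K178R replicate 1 (adjusted p = 0.147), with limma without trend (adjusted p = 0.0631) or with no filter (adjusted p = 0.102).

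TP53I3 (PIG3; chr2:24077433-24085861, minus strand) stood at 2.33 and 2.18 FPKM in the K178R libraries, 6.40 and 5.98 in the wild type libraries and 2.58 and 2.39 in the control libraries. The lines did not overlap, though K178R and control lay close together. The wild type libraries lay above the rest, at 2.49 times the control mean (log2 1.04, SE 0.06, adjusted p = 2.7e-05). With K178R it was not called against control (log2 -0.10, SE 0.06, adjusted p = 0.278), and it lay below wild type (log2 -1.14, SE 0.06, adjusted p = 3.5e-05). None of these 3 results changed its side of the threshold in the 16 settings.

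AEN (chr15:88621296-88632282, plus strand) stood at 18.6 and 19.3 FPKM in the K178R libraries, 22.3 and 22.6 in the wild type libraries and 20.65 and 21.2 in the control libraries. The lines did not overlap. It was not called with wild type TEAD4 (log2 0.09, SE 0.03, adjusted p = 0.0568), and after median-of-ratios scaling its log2 change there was -0.02. It fell with K178R (log2 -0.14, SE 0.03, adjusted p = 0.0292), a call that did not hold without any 1 of the control or K178R libraries, nor with the control libraries averaged or with limma without trend (adjusted p = 0.0593 to 0.139). It stood lower with K178R than with wild type TEAD4 in every setting (log2 -0.23, SE 0.03, adjusted p = 0.00196).

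The 10 genes fell into 2 ranges of level. FAS, TNFRSF10C, BBC3 and TP53I3 lay between 1.16 and 10.6 FPKM in every library, and the other 6 between 16.2 and 47.5 FPKM. Wild type TEAD4 over control, the ratio of mean FPKM ran from 1.86 to 2.72 in the lower range and from 0.917 to 1.38 in the higher one. For K178R over control it ran from 0.580 to 1.70 in the lower range, with FAS alone above 1, and from 0.829 to 1.05 in the higher one. For K178R over wild type it ran from 0.264 to 0.627 in the lower range and from 0.604 to 1.06 in the higher one. These ranges were set after the values were seen. In K178R the order of mean levels was TNFRSF10B, BAX, PMAIP1, TNFRSF10D, AEN, TNFRSF10A, BBC3, FAS, TP53I3 and TNFRSF10C, and the gaps among the first 3 were smaller than the sum of the neighbours' SDs. In wild type it began with BAX, TNFRSF10B and PMAIP1 and ended with TP53I3, TNFRSF10C and FAS, and the last pair did not differ beyond that spread. In control it ran from BAX to FAS by the same route as in wild type, and neither BAX and TNFRSF10B nor TP53I3 and TNFRSF10C differed beyond their spread. Summed over the 10 genes, the level was 150.7 and 155 FPKM in K178R, 207 and 204 in wild type and 176 and 174 in control. The share of FAS in that sum was 1.82% and 1.84% in K178R, 2.13% and 2.22% in wild type and 0.916% and 0.961% in control.

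For the 4 genes called against control with an absolute log2 change of at least 0.5, the nearest genes were sought by the distance between their pairs of log2 changes against control, a description over 6 libraries that share the control. Nearest to FAS were CD47, a surface protein (log2 0.50 with K178R and 1.08 with wild type TEAD4), and the class II chain gene HLA-DRA (0.47 and 1.07). BBC3 and TNFRSF10C lay at a distance of 0.07 from each other, and SERPINB5, the maspin gene, was near both (-0.46 and 0.75). Nearest to TP53I3 was DRAM1, a lysosomal membrane protein of autophagy (-0.11 and 1.01), at a distance of 0.03, followed by MISP3 at 0.14.

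Regulators of the p53 pathway were measured beside the targets. MDM2, a ubiquitin ligase of the pathway that is itself a target, stood at 29.9 and 29.7 FPKM in the K178R libraries, 40.5 and 41.98 in the wild type libraries and 27.2 and 29.03 in the control libraries. The wild type libraries lay above all others, and K178R lay above control without overlap. It rose with wild type TEAD4 (log2 0.54, adjusted p = 7.8e-05) and was not called with K178R (log2 0.08, adjusted p = 0.181). PPP1R13L, which encodes the inhibitor iASPP, rose with wild type TEAD4 (log2 0.79) and with K178R (log2 0.36, adjusted p = 0.0139). The call with K178R was lost without control replicate 1, without K178R replicate 2 or with no filter on low values. MDM4 (log2 -0.24), a relative of MDM2, and the acetyltransferase gene EP300 (log2 -0.22) fell with wild type TEAD4.

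Other p53 targets tied to death were counted in the same way. These counts, and those of the lists below, stand beside 37.6% of all genes higher and 12.2% lower with wild type TEAD4. With K178R against control the shares of all genes were 11.7% and 11.1%. Of 12 tested of 13 listed, 7 rose and 1 fell with wild type TEAD4 (5 and 1 after median-of-ratios scaling), with a median of 0.19. TP53INP1, a nuclear stress protein, led (log2 1.34), followed by ZMAT3 (log2 0.63) and PHLDA3 (log2 0.61), while SIVA1 fell (log2 -0.13), a call lost when control replicate 1, control replicate 2 or wild type replicate 2 was left out. With K178R 0 rose and 7 fell, and 3 fell without control replicate 2, with a median of -0.16. TNFRSF6B, which encodes a soluble decoy receptor for FAS ligand, fell most (log2 -0.99, SE 0.18, adjusted p = 0.0073), at 3.90 and 2.79 FPKM in the K178R libraries, 7.29 and 10.1 in the wild type libraries and 6.65 and 8.64 in the control libraries. PIDD1 (log2 -0.37) and PHLDA3 (log2 -0.36) followed. The list also holds TRIAP1, an inhibitor of apoptosis (log2 0.29 with wild type TEAD4 and -0.26 with K178R). TP53AIP1 did not reach the filter.

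Of the p53 targets of arrest and stress, 16 of 17 were tested, and 15 rose and 1 fell with wild type TEAD4 (13 and 1 after median-of-ratios scaling), with a median of 0.62, while 0 rose and 9 fell with K178R, with a median of -0.20. CDKN1A, the p21 gene, stood at 30.8 and 30.6 FPKM in K178R, 149 and 152 in wild type and 51.0 and 50.8 in control. PLK2 was the gene that fell with wild type TEAD4 (log2 -0.59, adjusted p = 0.000117). It also had the largest fall of the list with K178R (log2 -1.26, adjusted p = 4.8e-06). Earlier results of these data were known when the lists were drawn up, so these counts are no independent support for the direction of the death genes.

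Within the BCL2 family, the anti-death genes were compared with the pro-death genes outside the 10. Of 6 anti-death genes 3 were tested, and with wild type TEAD4 1 rose, BCL2L2 (log2 0.18), and 0 fell. After median-of-ratios scaling 0 rose and 1 fell, and without either K178R library 2 rose. With K178R none of the 3 was called by limma (unadjusted p of BCL2L1, BCL2L2 and MCL1 0.0423, 0.0350 and 0.194). MCL1 stood at 59.0 and 61.2 FPKM in K178R, 62.7 and 58.0 in wild type and 62.1 and 63.1 in control. BCL2 stayed under the filter at 0.220 to 0.303 FPKM, and BCL2A1 and BCL2L10 were listed at 0. All 6 tested of 7 other pro-death genes rose with wild type TEAD4, 3 of them after median-of-ratios scaling and 4 to 5 when a control or wild type library was left out. They were led by BIK (log2 0.56, SE 0.12), HRK (log2 0.47) and BAD (log2 0.29). With K178R 0 rose and 1 fell, BIK (log2 -0.42, SE 0.12, adjusted p = 0.0399), a call lost without control replicate 1 or either K178R library. With the replicate number as a block BIK was not called either. The medians of this list were 0.04 for K178R and 0.29 for wild type TEAD4.

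Genes downstream of the receptors were counted next. Among all genes tested, 37.6% were higher and 12.2% lower with wild type TEAD4 than in control. In K178R against wild type, 10.4% were higher and 34.5% lower. A count near those shares says nothing particular about a list. Of 10 tested of 14 death receptor signalling genes, 2 rose and 0 fell with wild type TEAD4, CASP10 (log2 0.28) and DEDD (log2 0.17), and 0 rose and 1 fell with K178R, TNFRSF21 (log2 -0.28). The first count was 1 after median-of-ratios scaling or without control replicate 1 or either wild type library, and 0 without control replicate 2. The second was 2 after that scaling or without control replicate 1, and 0 without control replicate 2 or K178R replicate 2. Between the TEAD4 lines 0 of these genes were higher and 5 were lower in K178R, led by CASP10 (log2 -0.31) and TNFRSF21 (log2 -0.26). That count was 1 after either scaling, with no filter on low values, or without wild type replicate 2 or K178R replicate 2, and 3 without K178R replicate 1. CASP10 reached 0.5 FPKM in the wild type libraries alone, at 0.669 and 0.603. It read 0.281 and 0.364 FPKM in the K178R libraries and 0.352 and 0.335 in the control libraries. A gene tested only through the line where it is high gives no support for its direction. FADD stood at 13.7 and 13.5 FPKM in K178R, 14.6 and 16.2 in wild type and 15.1 and 14.3 in control. CASP8 was not called against control in either line (log2 -0.08 with K178R and 0.15 with wild type TEAD4). Between the TEAD4 lines, CASP8 (log2 -0.23, adjusted p = 0.0341) and FADD (log2 -0.17, adjusted p = 0.038) were lower in K178R. Both are among the 5 genes counted as lower there, a count that was 1 after either scaling. Of 16 genes of the apoptosome, the caspases and their inhibitors, 8 rose and 1 fell with wild type TEAD4, or 5 and 4 after median-of-ratios scaling. The largest rise was that of BIRC3, an inhibitor of apoptosis known as an NF-kB target (log2 1.21). Like CASP10, BIRC3 reached 0.5 FPKM in the wild type libraries alone, at 1.81 and 1.78. It read 0.139 and 0.174 FPKM in the K178R libraries and 0.213 and 0.200 in the control libraries. The same limit therefore holds for its rise and for its lower level in K178R. XIAP, a caspase inhibitor (log2 0.44), and the initiator CASP9 (log2 0.33) followed, and CASP2 fell (log2 -0.29). With K178R 1 rose, XIAP (log2 0.20), and 4 fell, among them BIRC2 (log2 -0.21), CASP6 (log2 -0.18) and CASP2 (log2 -0.14). No more than 1 of them was called lower when any 1 of the control or K178R libraries was left out, and XIAP was not called without control replicate 1 or K178R replicate 1. Between the TEAD4 lines 1 was higher and 8 were lower in K178R, or 2 and 4 after median-of-ratios scaling, among them BIRC3 (log2 -1.27) and BIRC2 (log2 -0.45). For the receptor list the median was -0.07 in K178R and 0.04 in wild type TEAD4, and for the apoptosome list it was -0.03 in K178R and 0.16 in wild type TEAD4.

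**Figure D4:**
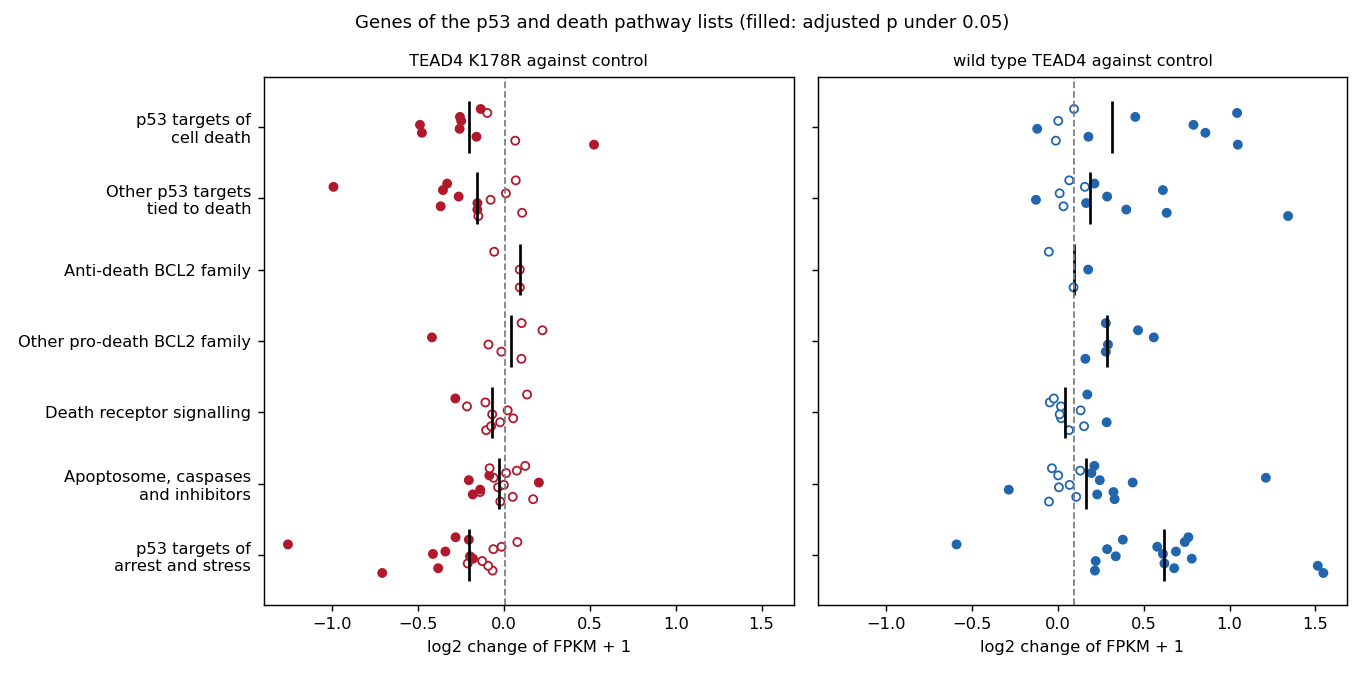
Log2 change of FPKM + 1 against control of each tested gene of the death genes and 6 related lists, with K178R on the left and wild type TEAD4 on the right, on the same scale; filled points passed an adjusted p of 0.05, black bars are list medians and the dashed line is the median of all genes tested. The arrest and stress list has the highest median with wild type TEAD4, at 0.62, and the death genes have a median of 0.31.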

How the data were processed

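RNA of 6 HCT116 libraries, 2 each from the TEAD4 K178R, wild type TEAD4 and control lines, was taken up in Trizol and made into libraries by an Illumina TruSeq kit, per the labels' protocols. Values are FPKM as deposited by the authors, in a file of 20030 rows for each library; the submitters' processing notes name Bowtie 0.12.2 and hg18, while for the FPKM program and its annotation the sources used here name nothing. The 4 rows with repeated identifiers were left out. The number of reads is unknown, and library totals were 283195 to 305329 FPKM. Libraries were grouped by title. Genes that reached 0.5 FPKM in 2 or more libraries, 11445 in all and all 10 death genes among them, were tested by limma 3.58.1 with trend in R 4.3.3 on log2(FPKM + 1), a scale that understates changes of low genes. Group means of all 6 libraries were fitted with no added scaling, two-sided, with Benjamini-Hochberg adjustment over all genes and a threshold of 0.05. The fit was tested on simulated data. The 16 alternatives were pseudocounts of 0.1 and 0.5, no filter or one of 1 FPKM, 2 scalings, limma without trend, only the lines compared, a replicate block, averaged controls, and leaving out each library, where the lone library left is assumed to vary like the others. Pearson's r of log2 FPKM over 9952 genes was 0.998 within lines and 0.985 to 0.99 between them; genes are not independent replicates. Overlaps, shared stretches of 50 bases and introns are from GENCODE release 29 (GRCh38), and promoter windows are from RefSeq (GRCh38.p14). The death genes and all lists were chosen with earlier results of these data known. Named in the text are the 10 death genes, list members called in a comparison (at most the 3 largest per list and comparison) or needed to say what a list holds, TEAD4, and the 2 genes nearest to each strongly changed death gene; ACTA2 was added after its values were seen. Counts over the list of pathway regulators are not reported here.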

Additional observations from a re-analysis of the deposited data

Results flagged for a closer look

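In the fit to all libraries, 4 death genes were called higher with wild type TEAD4 and lower with K178R than in the same 2 control libraries. The log2 change of K178R minus wild type was -1.34 for TNFRSF10C, -1.28 for BBC3, -0.71 for BAX and -0.34 for TNFRSF10B. Choosing genes this way fixes the sign of that difference, so it is given as a description. For comparison, 37.6% of all genes tested were higher with wild type TEAD4 than in control, and 11.1% were lower with K178R. The share of all genes with both calls was not computed, so whether 4 death genes is unusual was not tested. BBC3 kept both calls against control in all 16 settings. TNFRSF10C lost its fall with K178R without control replicate 1, and BAX lost its fall in 4 settings. TNFRSF10B lost its rise with wild type TEAD4 under both scalings and its fall with K178R in 3 settings. Groups of 2 libraries are too small to look for single libraries that stand apart.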

How the results depend on the processing

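With the replicate number of the titles as a block, the death genes called were 6 higher and 1 lower for wild type TEAD4, 1 and 7 for K178R, and 0 and 9 in K178R against wild type, and over all genes 4178 and 1334, 1210 and 1154, and 1119 and 3847. Same-numbered libraries did not deviate together (r of their deviations between lines -0.0311 to 0.0323), so the numbers are not taken as pairs. Median-of-ratios scaling gave 2572 higher and 2884 lower genes with wild type TEAD4 and 2600 and 2270 in K178R against wild type, with 1 death gene higher there; upper-quartile scaling gave 2765 and 2652, and 2263 and 2520. With the control libraries averaged, 0 death genes were lower for wild type TEAD4 and 4 for K178R, and 658 and 577 genes were higher and lower with K178R. Leaving out 1 library gave 0 to 1 lower death genes with wild type TEAD4 (6 higher each time) and 3 to 7 lower with K178R, and over all genes 732 to 1266 higher and 635 to 1229 lower with K178R. Without wild type replicate 2, the library with TEAD5 in its labels, 6 death genes were higher and 0 lower with wild type TEAD4. Changes that turned in sign were all of uncalled results. With 1 library left out, TNFRSF10A ran from -0.0964 to 0.0725 with wild type TEAD4 (0.0184 without wild type replicate 2) and from -0.0197 to 0.149 with K178R, and PMAIP1 with wild type TEAD4 from -0.0837 to 0.0882 (-0.00698 without control replicate 2). Under median-of-ratios and upper-quartile scaling PMAIP1 with wild type TEAD4 was at -0.117 and -0.102, and AEN at -0.0235 and -0.00889. Of 480 changes of single death genes, 439 kept direction and side of the threshold. The cause of these shifts was not tested. Without read numbers no counting error can be given, which limits FAS, TP53I3 and TNFRSF10C most.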
